A study of Mus musculus with 7 samples.

Results

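The genes described here are 108 transcripts that were at least 3-fold lower in C3H10T1/2 cells after exposure to purmorphamine than with vehicle, out of 18468 genes counted. They were chosen by the read counts themselves. A gene was taken when its mean over the 3 vehicle libraries was at least 50 reads and at least 3 times the mean of the 4 purmorphamine libraries plus 1 read, and when its highest purmorphamine count was below its lowest vehicle count. Of the 10602 genes with a vehicle mean of 50 reads or more, 120 met these numbers, and none was lost to the requirement that the groups not overlap. The selection leaves out 12 of the 120 by name or by collagen symbol, among them Acan, Bmx, Meox1 and Col2a1, so 108 genes (1.02% of the 10602) remained. Because the counts chose the genes, their levels are a description and carry no test.

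C3H10T1/2 is an established mouse line of mesenchymal origin that can take on osteoblast, adipocyte or cartilage character. The cells, no more than 10 passages from purchase, went without serum for 12 h and then received either purmorphamine at 2 μM, which activates Smo directly (n = 4 libraries, replicates 5 to 8), or 0.02% DMSO as vehicle (n = 3 libraries, replicates 2 to 4) for 48 h. Serum stayed absent through the 48 h of treatment in both groups. Stranded libraries of total RNA were sequenced, and sense-strand reads were counted per gene. All groups are the same unmodified line, and no source used here says whether the libraries of a group came from separate cultures, so p-values measure the spread between these libraries only.

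Smo is the membrane protein through which Hedgehog signals reach the Gli transcription factors. Without a Hedgehog ligand, the receptor Ptch1 keeps Smo inactive, and an agonist such as purmorphamine acts on Smo directly. In skeletal tissue this pathway governs the timing of cartilage growth and hypertrophy and favours bone formation over fat. Cartilage cells are known for a matrix of collagens, proteoglycans and linking proteins whose genes depend on Sox9 together with Sox5 and Sox6.

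The libraries held between 14337225 and 14342154 reads on genes, because the authors resampled the reads to equal numbers, so depth does not separate the groups. Gli1, a direct target of the pathway, had 12, 7 and 11 reads with vehicle against 2811, 3171, 2576 and 2522 after purmorphamine, and Ptch1, also a target, had 528, 532 and 504 against 11451, 10296, 10973 and 10970. Every library thus carried the response its label calls for. Across the whole table, edgeR (quasi-likelihood test, p-values adjusted by Benjamini-Hochberg) was run on 12388 genes and called 31.1% decreased and 31.4% increased at an adjusted p under 0.2, the study's threshold, and 20.4% of the genes tested had every purmorphamine count below every vehicle count. All 108 selected genes passed the filter on low counts and lay among the decreased, as the rule fixes.

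Taken over all 108 genes, the selected transcripts took 83899, 84552 and 86117 reads of the vehicle libraries and 18408, 16922, 17370 and 19756 of those with purmorphamine, or 0.585% to 0.600% of a library against 0.118% to 0.138%. The median log2 fold change was -2.22 (range -4.91 to -1.64), against 0.00376 over all genes tested. In terms of the ratio that chose them, the vehicle mean over the purmorphamine mean plus 1 read, 11 genes had a ratio of 10 or more, 28 lay from 5 to under 10 and 69 were under 5. The vehicle mean was under 100 reads for 28 genes, from 100 to under 1000 for 65 and at least 1000 for 15. RNA of a whole culture cannot tell fewer cells of a type from less RNA per cell. Just inside the limit stood Homer1, Mia1 and Kank1 with ratios of 3.004, 3.014 and 3.024, and just outside stood Kcnj2, Tsc22d1 and Fam107a with 2.996, 2.993 and 2.982, so the limit does not mark a gap.

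**Figure D1:**
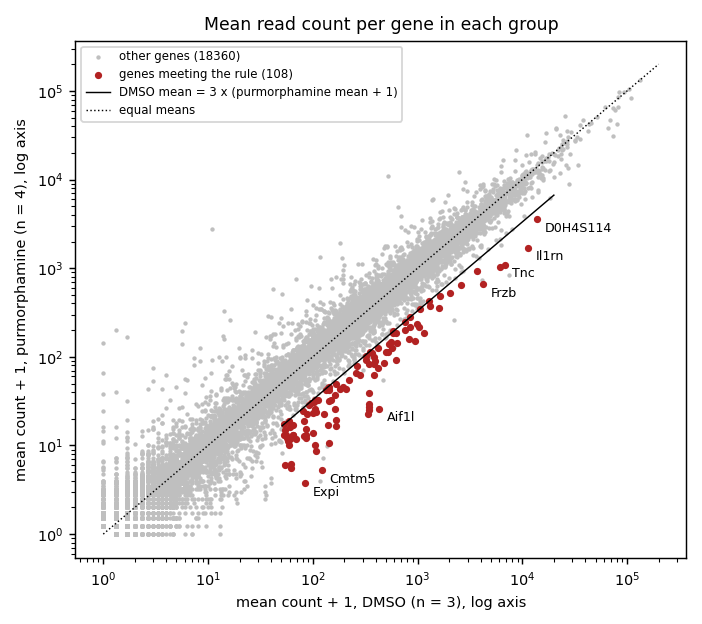
Mean read count plus 1 of each gene with vehicle (horizontal, n = 3 libraries) and with purmorphamine (vertical, n = 4), both on log axes, with the 108 selected genes in red and the others in grey. The solid line is the ratio of 3 and the dotted line marks equal means. Grey points under the solid line are genes left out by name or pattern or with a vehicle mean under 50 reads.

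By product, 11 of the 108 genes encode structural proteins of the matrix, 17 encode secreted signals and antagonists, 12 encode proteases, their inhibitors or cell-surface enzymes, and 15 encode receptors and adhesion proteins. A further 8 encode membrane-spanning, channel or transport proteins, 4 encode enzymes of glycans and sulfate, 7 other metabolic or modifying enzymes, 6 transcription factors and regulators, 11 intracellular signalling proteins, 7 cytoskeletal or motor proteins and 7 other proteins. The last 3 are RIKEN transcripts with no assigned product. These classes were assigned by hand from general knowledge after the genes were known.

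The matrix genes had a median ratio of 6.29 (range 3.91 to 11.8), and their largest ratio belonged to Epyc. Epyc (chr10:97644068-97682454, plus strand, GRCm38) encodes epiphycan, a small leucine-rich proteoglycan of the growth plate, and had 344 ± 20.6 reads (SD, n = 3) with vehicle against 19, 37, 26 and 31 after purmorphamine. Ucma (chr2:4976122-4985748), which encodes a small Gla-rich protein secreted by cartilage cells, went from 89, 112 and 98 reads to 10, 14, 13 and 15, a ratio of 7.12. Thbs4 (chr13:92751590-92794818) encodes thrombospondin-4 of tendon and muscle matrix and had 584, 673 and 609 reads against 82, 74, 98 and 108. In all 3 genes every purmorphamine count lay below every vehicle count, as the rule requires.

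Tnc, which encodes tenascin-C, was the most abundant matrix gene by reads, with 6681, 7099 and 6794 with vehicle against 1145, 876, 997 and 1350 after purmorphamine (ratio 6.27). Fmod, which encodes the collagen-binding proteoglycan fibromodulin, had 899, 941 and 994 reads against 148, 112, 138 and 199. In both genes replicate 6 was the lowest and replicate 8 the highest of the purmorphamine libraries. Eln, the gene for tropoelastin, had 1480, 1577 and 1722 reads against 403, 409, 278 and 342, and here replicate 7 was lowest. Tgfbi encodes a secreted protein that binds integrins and collagen, and had 933, 996 and 1009 reads against 213, 245, 223 and 263. Hapln1, which encodes the link protein that ties aggrecan to hyaluronan, had a ratio of 6.29. Dmp1 encodes an acidic phosphoprotein of mineralised matrix and had 81, 79 and 95 reads against 10, 9, 19 and 10, with replicate 7 apart from the rest. Sparcl1 and Spp1, the gene for osteopontin, completed the class with ratios of 3.99 and 3.91.

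The 17 secreted signals and antagonists had a median ratio of 4.40 (range 3.01 to 13.5). Several of them hold other signals in check. Il1rn encodes the interleukin-1 receptor antagonist and was among the most abundant transcripts of the whole selection, with 11756, 11167 and 11355 reads with vehicle against 1813, 1430, 1490 and 2094 after purmorphamine (ratio 6.69). Frzb, which encodes a secreted Wnt antagonist first found in cartilage, had 4252, 4202 and 4281 reads against 700, 482, 623 and 830 (ratio 6.43). The vehicle counts of Frzb lay close together while its purmorphamine counts ranged widely, again with replicate 6 lowest and replicate 8 highest. Sfrp2 encodes another secreted Frizzled-related protein and had 2504, 2556 and 2706 reads against 666, 721, 569 and 600. Grem1, which encodes the BMP antagonist gremlin, had a ratio of 4.40.

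Scube3 (chr17:28142141-28174854) had the largest ratio of the class, 13.5, with 344, 335 and 343 reads with vehicle against 30, 28, 23 and 16 after purmorphamine. It encodes a secreted and cell-surface glycoprotein with EGF repeats. Il7 encodes a cytokine of lymphocyte development and had 57, 58 and 66 reads against 2, 1, 6 and 9, counts so low that the ratio of 10.97 rests on few reads. C3, the central complement component, had 3409, 3652 and 4079 reads against 928, 1060, 874 and 889. The 3 CC chemokines in the set were Ccl6, with 54, 47 and 80 reads against 5, 5, 5 and 6, Ccl9 with a ratio of 6.21 and Ccl2 with a ratio of 3.37. The class further holds Wnt5b, a Wnt ligand (ratio 3.17), the peptide hormone genes Apln and Edn1 (5.63 and 3.99), the semaphorin gene Sema3e (3.09), Chi3l1, which encodes a chitinase-like glycoprotein (4.44), and Mia1, which encodes a small protein secreted by cartilage and melanoma cells (3.01).

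The 12 genes for proteases, inhibitors and cell-surface enzymes had a median ratio of 6.01 and the widest range of the classes with more than 10 genes, 3.09 to 22.3. Expi (chr11:83709015-83711348, plus strand), named Wfdc18 in newer annotation, encodes a small secreted protein with a WAP domain of the kind found in protease inhibitors. It had 92, 79 and 80 reads with vehicle against 1, 2, 1 and 7 after purmorphamine. Replicate 8 stood above the other 3 purmorphamine libraries, and the log2 fold change of -4.91 became -5.88 without it. Serpina3n (chr12:104406729-104414329), a secreted inhibitor of serine proteases, had 307, 325 and 379 reads against 23, 24, 18 and 22 (ratio 14.8).

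Wfdc3 and Spink5 encode further inhibitor-like secreted proteins, with ratios of 7.06 and 6.43. Wfdc3 had 68, 76 and 110 reads against 9, 12, 16 and 7, and Spink5, which encodes a multidomain Kazal-type inhibitor, had 79, 73 and 94 against 16, 7, 18 and 6. 9930013L23Rik, named Cemip in newer annotation, encodes a protein required for the breakdown of hyaluronan and had 345, 329 and 362 reads against 36, 41, 38 and 39, a near-constant level in the treated libraries. Aoc3, which encodes a cell-surface amine oxidase, was the most abundant of the class with 1852, 2066 and 2161 reads against 517, 533, 498 and 562. Adamts9 encodes a metalloprotease that cleaves proteoglycans and had a ratio of 3.09. Car9 (a cell-surface carbonic anhydrase), Cpm (a membrane-bound carboxypeptidase) and Lipg (endothelial lipase) had ratios of 4.78, 4.55 and 4.52.

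**Figure D2:**
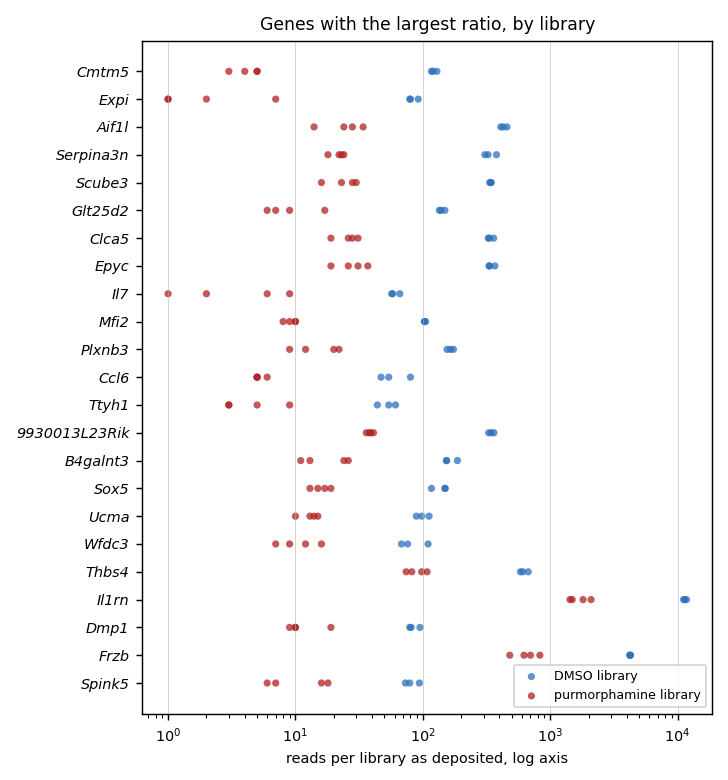
Reads per library for 23 of the 24 selected genes with the largest ratio, on a log axis, with the 3 vehicle libraries in blue and the 4 purmorphamine libraries in red. The genes are ordered from a ratio of 23.2 for Cmtm5 at the top to 6.43 for Spink5, and no red point reaches a blue one, as the selection requires.

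The enzymes of glycans and sulfate were few but had the highest median ratio of any class, 7.23 (range 5.70 to 13.1). Papss2 encodes an enzyme that makes the sulfate donor for proteoglycan chains and is needed for normal cartilage. It had 6298, 6011 and 6116 reads with vehicle against 1058, 796, 966 and 1259 after purmorphamine (ratio 6.02). Glt25d2 (chr1:152399830-152510695), named Colgalt2 in newer annotation, encodes a galactosyltransferase that acts on collagen and had 135, 149 and 139 reads against 9, 7, 6 and 17. B4galnt3, which adds N-acetylgalactosamine to glycans, had 153, 187 and 154 reads against 24, 11, 13 and 26. Extl1, a glycosyltransferase related to those that build heparan sulfate, had 104, 142 and 139 reads against 22, 11, 20 and 33. For Papss2, Glt25d2, B4galnt3 and Extl1 alike, replicate 8 was the highest purmorphamine library.

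Receptors and adhesion proteins numbered 15, with a median ratio of 4.44 (range 3.04 to 10.1). Mfi2, named Meltf in newer annotation, encodes melanotransferrin, an iron-binding protein held on the cell surface, and had 105, 103 and 103 reads with vehicle against 10, 10, 8 and 9 after purmorphamine. Plxnb3 and Plxnb1 encode plexin receptors for semaphorins. Plxnb3 (chrX:73757090-73772514) had 155, 174 and 165 reads against 22, 9, 12 and 20 (ratio 9.83), while Plxnb1 had 727, 834 and 689 against 252, 264, 226 and 241 (ratio 3.04). Itga6, which encodes an integrin subunit that binds laminin, had 1159, 1130 and 1165 reads against 193, 173, 158 and 210 (ratio 6.24). Megf10 encodes a receptor for the engulfment of cells and was the most abundant of the class, with 1643, 1615 and 1602 reads against 501, 392, 546 and 489. Susd5, a membrane protein with a sushi domain, had 844, 822 and 803 reads against 161, 111, 138 and 220.

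Of the other 9 receptor and adhesion genes, 5 encode cell adhesion or contact proteins known from the nervous or immune system. These are L1cam (ratio 4.44), Kirrel3 (5.79), Lrrn3 (4.63), Cd200 (4.36) and Cd24a (3.83). Erbb3 (5.02) encodes a receptor of the EGF family, Gpr176 (4.30) a G protein-coupled receptor, and Bambi (3.30) a pseudoreceptor that dampens TGF-beta and BMP signals. Cldn19 (3.30) encodes a claudin of tight junctions.

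Cmtm5 (chr14:54936261-54939274, plus strand), which encodes a small protein that crosses the membrane several times, had the largest ratio of all 108 genes. Its reads numbered 120, 129 and 117 with vehicle against 5, 4, 5 and 3 after purmorphamine, a ratio of 23.2. The 8 membrane-spanning, channel and transport genes to which it belongs had a median ratio of 4.62 and a range from 3.14. Clca5 and Clca1, named Clca2 and Clca3a1 in newer annotation, encode members of a family that regulates chloride channels and lie close together on chromosome 3. Clca5 had 326, 360 and 333 reads against 28, 19, 26 and 31 (ratio 12.6), and Clca1 had a ratio of 4.90. How the counting assigned reads shared between such related genes is not given in the sources used here, so these values are less certain. Ttyh1, which encodes a membrane protein of the tweety family, had 44, 61 and 54 reads against 3, 3, 5 and 9. Slc5a7, a choline transporter (ratio 4.35), Atp1b2, a beta subunit of the sodium pump (3.20), and Nkain3, which binds that pump (3.14), belong to the same class.

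The 7 metabolic and modifying enzymes had a median ratio of 4.21 (range 3.05 to 4.84), and none reached 5. Cyp26b1, which inactivates retinoic acid, was the most abundant of the 7 with 1028, 1052 and 1041 reads with vehicle against 207, 196, 191 and 261 after purmorphamine. Acox2, an oxidase of branched fatty acids and bile acid intermediates, had 250, 249 and 268 reads against 55, 71, 61 and 69. Padi2, which converts arginine residues to citrulline, had 211, 199 and 208 against 53, 43, 32 and 42. G0s2 encodes an inhibitor of triglyceride lipase and had a ratio of 4.47, Ppp1r3b a glycogen-targeting subunit of protein phosphatase 1 (3.16), and Bcat1 a branched-chain amino acid transaminase (3.05). Acot1, an acyl-CoA thioesterase (4.21), has near-identical neighbours in its gene family, so its count is uncertain.

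The transcription factors and regulators were 6 genes with a median ratio of 3.90 (range 3.22 to 8.16). Sox5 (chr6:143828425-144781977, minus strand) had 149, 150 and 117 reads with vehicle against 17, 13, 15 and 19 after purmorphamine. Its relative Sox6, with which it acts on cartilage genes, had 294, 322 and 352 against 83, 78, 94 and 111. The ratio was therefore 8.16 for Sox5 and 3.49 for Sox6. Ehf encodes an ETS factor known from epithelia and had 177, 202 and 197 reads against 58, 42, 34 and 43. 1810011O10Rik, named Tcim in newer annotation, encodes a small regulator of Wnt-dependent transcription and had 111, 102 and 104 reads against 25, 15, 26 and 25, with replicate 6 apart. Mdfi, an inhibitor of myogenic factors, and Tcf7, an effector of the Wnt pathway, had ratios of 3.56 and 3.22.

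The 11 intracellular signalling genes had the lowest median ratio of the classes with more than 3 genes, 3.50 (range 3.004 to 5.44). Ralgapa2, a subunit of the complex that inactivates Ral GTPases, had 1296, 1342 and 1265 reads with vehicle against 381, 349, 406 and 346 after purmorphamine. Pag1 encodes a membrane adaptor for the kinase Csk and had 896, 848 and 818 reads against 281, 256, 288 and 290. Adcy1, an adenylyl cyclase stimulated by calcium and calmodulin, had 591, 538 and 535 against 138, 138, 151 and 160. Dgki, a diacylglycerol kinase, had the largest ratio of the class, 5.44. The class further holds Rasgrp3, an activator of Ras and Rap (3.86), the small GTPases Rhou and Rnd1 (3.07 and 3.35), Rassf4 (3.19), the adaptor gene Fam59b (5.07), Sncaip, which encodes a binding partner of alpha-synuclein (4.18), and the scaffold gene Homer1.

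Among the 7 cytoskeletal and motor genes (median ratio 4.36, range 3.02 to 16.6), Aif1l stood apart. Aif1l (chr2:31950139-31973442, plus strand) encodes a calcium-binding protein that bundles actin, and had 426, 409 and 458 reads with vehicle against 34, 28, 14 and 24 after purmorphamine. The next largest ratio, 5.83, was that of Myh14, a non-muscle myosin heavy chain. Drp2, a relative of dystrophin, had 484, 491 and 512 reads against 105, 102, 127 and 117, and Kif5c, a kinesin heavy chain, had 275, 303 and 273 against 67, 63, 58 and 55. Kank1 encodes a regulator of actin at adhesions and was the most abundant, with 1293, 1318 and 1263 reads against 409, 403, 393 and 499. Sntb1, a syntrophin, and Tnni1, the slow skeletal troponin I, had ratios of 3.90 and 3.23.

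The 7 other proteins had ratios of 3.08 to 4.03. D0H4S114, named Nrep in newer annotation, encodes a 68-residue protein also called P311, and had more reads than any other selected gene, 13810, 13534 and 14227 with vehicle against 3556, 3466, 3720 and 3625 after purmorphamine. Its purmorphamine libraries lay closer together than those of Il1rn or Tnc. Per kilobase of exon, D0H4S114 also ranked highest, with 3546 reads per kilobase in the mean of the vehicle libraries, followed by Il1rn with 2064, Papss2 with 1651, Frzb with 1311 and Sfrp2 with 1202. Fam198a had 751, 737 and 769 reads against 232, 191, 194 and 190. Fam134b, which encodes a receptor for autophagy of the endoplasmic reticulum, had a ratio of 3.31, and Dusp27, Fam84b, Ccdc37 and Fam129a had ratios of 4.03, 3.63, 3.22 and 3.08. The RIKEN transcripts were 2610035D17Rik, a long intergenic RNA with a ratio of 4.66, E230016K23Rik, a processed transcript with 3.41, and 4930523C07Rik with 3.32, for which the annotation holds a reading frame of 99 residues.

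**Figure D3:**
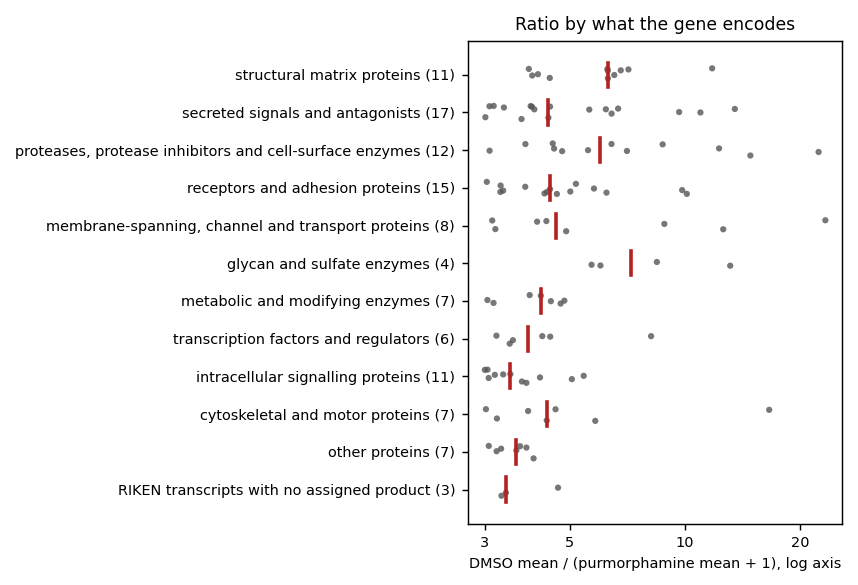
Ratio of the vehicle mean to the purmorphamine mean plus 1 read for each of the 108 genes (points, log axis), grouped by what the gene encodes, with the number of genes in parentheses and the class median as a red bar. Ratios start at 3 because the rule does. Medians run from 3.41 for the RIKEN transcripts to 7.23 for the glycan and sulfate enzymes, and the largest ratios, those of Cmtm5, Expi and Aif1l, fall in 3 different classes.

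The products were next compared by a property of their sequence that the rule did not use. Proteins that enter the secretory pathway usually begin with a short hydrophobic signal, and proteins that stay in the membrane carry further hydrophobic segments. The longest coding sequence of each gene in GENCODE M21 was translated, and a gene was counted as having an N-terminal stretch when any 11 residues within the first 35 had a mean Kyte-Doolittle hydropathy of at least 2.0, and as having a further segment when any 19 residues beyond had a mean of at least 1.6. Of the 106 selected genes with a coding sequence, 63 had an N-terminal stretch, or 59.4% (95% Wilson interval 49.9 to 68.3), against 14.5% of the 10121 other genes with a vehicle mean of at least 50 reads. A further segment was found in 35 of the 106, or 33.0% (24.8 to 42.4), against 26.8% of the others. An N-terminal stretch with no further segment, an arrangement common in secreted proteins, was found in 38.7% of the selected genes and in 6.75% of the others. The limits also gave it to the membrane-bound Cpm, the membrane adaptor Pag1 and the small GTPase Rnd1. They gave a further segment to the secreted C3 and Serpina3n, so these shares are not those of secreted or membrane products. Neither feature was found in 28.3% against 66.4%. The products were of similar length, with a median of 490 residues against 481. The intervals cover counting error only, and the comparison is a description with no test.

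By class, the N-terminal stretch was found in all 11 matrix proteins, in 16 of 17 secreted signals and in 11 of 12 proteases, inhibitors and surface enzymes. Lipg, known to be secreted, was not caught by these limits. Among the receptors and adhesion proteins it was found in 12 of 15, and 14 of 15 had a further segment. It was also found in 3 of 4 enzymes of glycans and sulfate and in 5 of 8 membrane-spanning, channel and transport proteins. Of intracellular signalling proteins 2 of 11 had it, and of metabolic and modifying enzymes 1 of 7. No cytoskeletal protein and no transcription regulator had an N-terminal stretch. Because the classes were assigned by hand from what is known of the products, this split partly restates the labels and is no separate result.

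Promoters of 3 genes, taken from the inhibitors, the matrix proteins and the secreted antagonists, are shown as examples of the motifs searched. They are the 250 bases before the start given by RefSeq in GRCm38.p6, all on the plus strand. The first is that of Expi at chr11:83708754-83709003, where the capitals mark a TATA box centred 28 bases before the start. The next is that of Epyc at chr10:97643818-97644067, where the capitals mark the SOX motif, here on the opposite strand, centred 234 bases before the start. The last is that of Il1rn at chr2:24336610-24336859, where the capitals mark an AP-1 motif centred 138 bases before the start.
Expi: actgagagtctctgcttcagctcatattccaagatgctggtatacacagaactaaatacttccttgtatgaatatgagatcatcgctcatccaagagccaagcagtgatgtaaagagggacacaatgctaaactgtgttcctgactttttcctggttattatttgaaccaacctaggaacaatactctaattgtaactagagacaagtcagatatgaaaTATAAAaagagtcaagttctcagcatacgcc
Epyc: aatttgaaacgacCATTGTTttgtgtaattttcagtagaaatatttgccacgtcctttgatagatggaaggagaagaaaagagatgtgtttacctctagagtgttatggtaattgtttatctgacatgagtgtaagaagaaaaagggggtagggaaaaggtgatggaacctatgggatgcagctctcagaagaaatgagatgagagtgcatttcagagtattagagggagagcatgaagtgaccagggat
Il1rn: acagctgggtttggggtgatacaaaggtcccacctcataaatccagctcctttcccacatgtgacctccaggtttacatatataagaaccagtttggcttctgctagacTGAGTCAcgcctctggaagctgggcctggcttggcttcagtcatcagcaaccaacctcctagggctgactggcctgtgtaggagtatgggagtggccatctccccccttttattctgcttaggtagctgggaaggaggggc

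Among the selected genes, 77 had a promoter in the RefSeq table, 104 promoters in all, and each was searched on both strands from 250 bases before to 50 after the start. TATAAA, the TATA box, was found in 16.3% of them against 13.6% of all 32851 promoters, TGANTCA, the AP-1 motif, in 9.62% against 7.81%, and GGAATG, the TEAD motif, in 15.4% against 14.7%. AACAATG, the SOX motif, was found in 4.81% (95% Wilson interval 2.07 to 10.8) against 3.78%, in promoters of 4 genes, Clca5, Epyc, Plxnb3 and Sox6. CACGTG, an E-box, was found in 3.85% (1.51 to 9.47) against 7.15%. GACCACCCA, the Gli motif, and GTCTAGAC, a Smad palindrome, were found in none of the 104, which allows a share of up to 3.56% by the Wilson interval, against 0.253% and 0.213% of all promoters. For each motif the share over all promoters lay within the interval for the selected ones. The intervals treat the 104 promoters as separate, although they come from 77 genes and some promoters of the same gene overlap. Their true width is therefore larger. A match is a string of letters and not a site.

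Some of the selected genes lie side by side. On chromosome 11, Ccl9, E230016K23Rik, Ccl6 and Expi fall within 138430 bases (chr11:83572919-83711348). The only counted gene between them is Ccl4, with 0 reads in every library but 1, which had 1 read. E230016K23Rik runs across Ccl6 on the opposite strand, and the sense-strand counting keeps their reads apart. E230016K23Rik had 120, 117 and 98 reads with vehicle against 35, 15, 46 and 31 after purmorphamine, and Ccl9 had 385 ± 16.2 (SD, n = 3) against 74, 56, 56 and 58. The nearest tested genes around this block differed less. Taf15, on one side, had 1162, 1181 and 1111 reads against 994, 1075, 1064 and 1044 (log2 fold change -0.19 ± 0.0496 (SE), edgeR adjusted p = 0.00507), and Heatr6, on the other, had 643, 629 and 582 against 608, 624, 574 and 611 (-0.08 ± 0.059, adjusted p = 0.287).

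On chromosome 5, Sparcl1, Dmp1 and Spp1 fall within 361940 bases (chr5:104079111-104441050), in the cluster that holds the genes for acidic phosphoproteins of bone and tooth. Ibsp, the bone sialoprotein gene between Dmp1 and Spp1, had at most 2 reads in any library. Spp1 had 854, 870 and 806 reads with vehicle against 184, 233, 213 and 228 after purmorphamine, and Sparcl1 had 209, 222 and 231 against 57, 64, 34 and 62. Nudt9, just before Sparcl1, had 519, 497 and 573 reads against 461, 485, 416 and 457 (log2 fold change -0.27 ± 0.0709 (SE), edgeR adjusted p = 0.00521). Pkd2, just beyond Spp1, had 6480, 6544 and 6253 against 6521, 6344, 6887 and 6521 (log2 fold change -0.02 ± 0.0458 (SE), edgeR adjusted p = 0.816). In all, 11 pairs of selected genes that follow each other along a chromosome started within 1000000 bases of each other, among them Plxnb3 and L1cam on chromosome X at 96688 bases, Fmod and Chi3l1 at 144922, and Thbs4 and Homer1 at 548045. Between the pairs named here lay 5, 3 and 3 other counted genes, in that order. How many such pairs another set of genes would give was not computed, so the 11 are a description only.

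The nearest tested genes on either side were taken, passing over other selected genes and genes left out by name or by collagen symbol. These neighbours numbered 201, and the rule used none of them. Of these, 101 were called decreased by edgeR (50.2%, against the 31.1% of all genes tested) and 40 increased (19.9%, against 31.4%), and the median log2 fold change was -0.13. The median distance between starts was 115516 bases. Within 100000 bases there were 94 neighbours, of which 47 were decreased and 14 increased (14.9%). Leaving out neighbours that share a gene family with any selected gene left 169, of which 83 were decreased (49.1%). With library totals in place of TMM factors, 43.8% of the neighbours and 25.5% of all genes tested were called decreased.

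Among neighbours with a mean of at least 50 reads over the 7 libraries, the largest decreases were those of Fam107a, next to Acox2 with starts 70763 bases apart, Sfrp1, next to 1810011O10Rik at 1025678 bases, and Dysf, next to Cyp26b1 at 562824 bases. Sfrp1, like Frzb and Sfrp2 a secreted Wnt antagonist, had 7976, 7744 and 8239 reads with vehicle against 2638, 2908, 2811 and 2777 after purmorphamine (log2 fold change -1.57 ± 0.047 (SE), edgeR adjusted p = 9.96e-14). Dysf, the gene for the membrane repair protein dysferlin, had a log2 fold change of -1.54 (SE 0.0662, edgeR adjusted p = 6.3e-12). Neighbours with fewer reads fell further, among them Ccl7, a chemokine gene 10141 bases from Ccl2, with 50, 45 and 48 reads against 6, 14, 8 and 13 (log2 fold change -2.25 ± 0.241 (SE), edgeR adjusted p = 7.53e-07), Wfdc13 beside Wfdc3 (-2.98, adjusted p = 0.000116) and Gm13411 beside Il1rn (-2.01, adjusted p = 0.000257). Other neighbours rose. Igfbp3, 142597 bases from Adcy1, encodes a carrier of insulin-like growth factors and had 12, 13 and 15 reads against 301, 397, 327 and 298 (log2 fold change 4.57 ± 0.175 (SE), edgeR adjusted p = 1.51e-12). Magi1, 902756 bases from Adamts9, and Lamc3, 62848 bases from Aif1l, rose by 2.28 and 2.04 on the log2 scale (edgeR adjusted p = 4.67e-14 and 5.74e-10), and Xpnpep2 beside Apln, with fewer reads, rose by 3.15 (adjusted p = 5.41e-06).

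**Figure D4:**
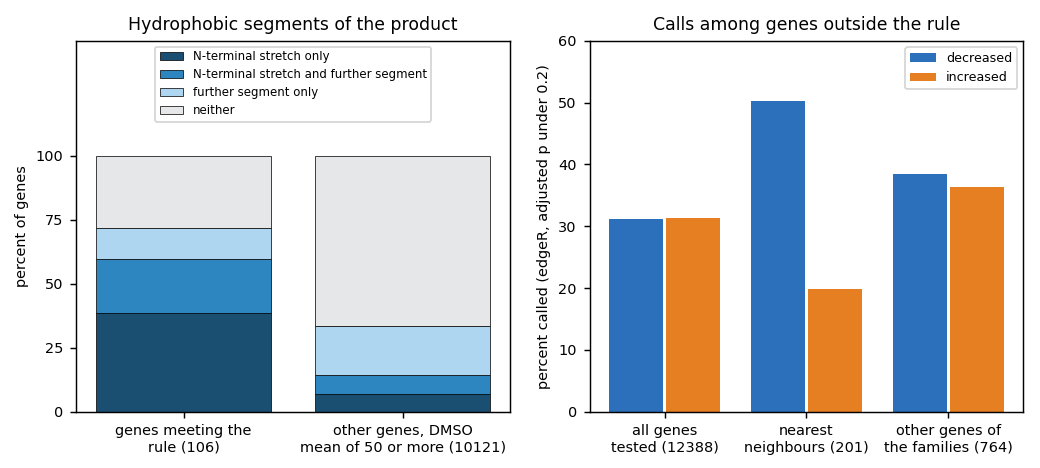
On the left, the percentage of genes by hydrophobic segments of the encoded protein, for the 106 selected genes with a coding sequence and the 10121 others with a vehicle mean of at least 50 reads. On the right, the percentage of genes called decreased (blue) or increased (orange) by edgeR among all 12388 genes tested, the 201 nearest neighbours and the 764 other genes of the families described next. The N-terminal stretch, alone or with a further segment, covers 59.4% of the selected genes, and 50.2% of the neighbours were called decreased.

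The genes related to the selected ones by family moved in both directions. Of 56 families defined by gene symbol, 15 held at least 2 selected genes. Without genes left out by name or by collagen symbol, their other members numbered 764 among the genes tested. Of these, edgeR called 294 decreased (38.5%, against 31.1% of all genes tested) and 278 increased (36.4%, against 31.4%), with a median log2 fold change of 0.0029. The genes named below for each family had a mean of at least 50 reads over the 7 libraries unless stated. In 29 families no gene was selected, among them homeobox, forkhead, zinc finger and histone genes, laminins and interferon-stimulated genes. Those families held 43, 19, 389, 14, 5 and 31 genes with a vehicle mean of at least 50 reads, in that order. Of all such genes 1.02% were selected, so a family with few of them would often hold none. The rule itself leaves out Meox1, a homeobox gene, and the collagens by symbol.

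Of the matrix glycoproteins and proteoglycans, 9 were selected, and of the 47 others tested 19 decreased and 22 increased. Fbn2, which encodes fibrillin-2, rose from 1302, 1422 and 1439 reads to 6190, 6211, 6358 and 5442 (log2 fold change 2.08 ± 0.0622 (SE), edgeR adjusted p = 9.96e-14). Fbln1, the gene for fibulin-1, rose from 8, 4 and 7 reads to 95, 131, 87 and 70 (3.85 ± 0.307 (SE), adjusted p = 1.83e-08). Eln, whose product joins with fibrillins and fibulins in elastic fibres, was among the selected genes.

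Among Wnt ligands, receptors and antagonists, Sfrp2 and Wnt5b were selected, and of the 26 others 16 decreased and 8 increased. Frzb belongs with them by function but was not caught by the symbol pattern. Wnt9a rose from 40, 42 and 41 reads to 133 ± 9.78 (SD, n = 4) (log2 fold change 1.64 ± 0.132 (SE), edgeR adjusted p = 2e-08), and the receptor gene Fzd9 fell from 125, 144 and 135 to 45, 42, 34 and 57 (-1.64 ± 0.147 (SE), adjusted p = 7.62e-08). Among TGF-beta and BMP genes, with Bambi and Grem1 selected, 16 of the 46 others decreased and 16 increased. Sostdc1, like Grem1 a BMP antagonist, had no read in any vehicle library and 156, 115, 151 and 150 with purmorphamine, and Chrdl1, a further antagonist, rose by 2.32 on the log2 scale (SE 0.116, edgeR adjusted p = 4.63e-11).

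The SOX family was small, and Sox9, which the selection leaves out by name, was not counted in it. Besides Sox5 and Sox6 it had 4 genes tested, of which edgeR called 2 decreased and left 2 not called. Sox4 fell from 1000, 1044 and 1072 reads to 595, 629, 586 and 570 (log2 fold change -0.85 ± 0.0545 (SE), edgeR adjusted p = 1.05e-09). For axon guidance, with Plxnb1, Plxnb3 and Sema3e selected, 22 of 51 others decreased and 19 increased, and Sema3g and Plxna4 rose by 2.21 and 2.00 on the log2 scale (edgeR adjusted p = 7.19e-09 and 1.5e-11). Of the other chemokines and their receptors, 4 of 8 decreased and 4 increased, among them Cxcl1 and Cxcr7, which rose by 1.18 and 0.91 (adjusted p = 3.46e-05 and 1.31e-09), while Ccl7, with fewer reads, fell as given above. Glycosyltransferases and sulfotransferases held B4galnt3 and Extl1, with 36 of 78 others decreased and 19 increased. St8sia2, which adds polysialic acid to adhesion proteins, rose from 111, 108 and 131 reads to 1321, 1493, 1328 and 1165 (3.46 ± 0.0975 (SE), adjusted p = 4.82e-14).

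Contractile genes other than Myh14 and Tnni1 decreased in 38 of 65 cases and increased in 15, and Actg2, which encodes a smooth muscle actin, had a log2 fold change of -1.45 (edgeR adjusted p = 2.25e-07). Among interleukins and their receptors, with Il1rn and Il7 selected, 11 of 28 others decreased and 9 increased, and Il1rl1 and Lifr fell (-1.62 and -1.33, adjusted p = 4.37e-09 and 6.69e-12). In serpins and secreted serine proteases 9 of 28 others decreased and 12 increased. Plat, which encodes the tissue plasminogen activator, rose from 184, 205 and 188 reads to 797, 760, 760 and 694 (1.92 ± 0.075 (SE), adjusted p = 1.85e-12). CMTM, MAL and tetraspanin genes outside the selection decreased in 17 of 39 cases and increased in 13, and Tspan11 and Tspan18 rose by 4.02 and 1.86 on the log2 scale (adjusted p = 1.57e-09 and 2.07e-09), while Tspan2, with fewer reads, fell from 46, 39 and 44 to 9, 12, 9 and 17 (-1.91, adjusted p = 3.84e-06). Genes taken by symbol for adhesion of the immunoglobulin type, with 5 selected, decreased in 16 of 54 other cases and increased in 24, and the pattern also takes in genes of other kinds, such as the selected Cd24a and the tetraspanin gene Cd9. Cd9 and Igsf10 rose by 1.09 and 1.01 (adjusted p = 2.17e-11 and 2.51e-10). The counts were 24 decreased and 28 increased of 74 other ion channel genes and 31 and 33 of 96 small GTPase genes. Both symbol patterns also take in regulators, such as the selected Clca5 and Rasgrp3. The leading genes there were Kcnj2 (-1.65) and Kcnip3 (1.20), and Rasl11b (3.8) and Gem (2.11), each with an edgeR adjusted p of 1.93e-07 or less.

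Markers of cell types were read beside these genes. Over all genes tested, 31.1% were called decreased and 31.4% increased. Of 10 mesenchymal markers, 9 had more than 10 reads in every library, 3 were called decreased and 5 increased. Vim fell from 79806, 79220 and 81440 reads to 42739, 42444, 41359 and 43378 and Pdgfra rose by 0.76 on the log2 scale (edgeR adjusted p = 1.73e-11 and 3.92e-10). Of 9 cartilage markers in the table all 9 were called decreased, 5 of them selected genes (Epyc, Hapln1, Ucma, Sox5 and Sox6), and their summed level was 10261 to 10863 reads with vehicle and 1518 to 2327 with purmorphamine. Most of that sum was Col2a1, left out of the selection by its collagen symbol, with 7123, 7429 and 7655 reads against 899, 672, 609 and 1153. The decreases of the selected markers and of Col2a1, which met the same numbers, follow from the rule. Of the others, Cytl1 fell from 1982, 2018 and 2033 reads to 854, 617, 685 and 916, Matn3 from 43, 42 and 48 to 12, 15, 21 and 16, and Comp by 0.84 on the log2 scale (edgeR adjusted p = 9.9e-10, 1.65e-05 and 0.000888). Of 6 tenocyte markers 2 were selected (Fmod and Thbs4), while Tnmd had 3455, 3196 and 3203 reads against 3258, 2356, 3027 and 3817 (log2 fold change -0.12, adjusted p = 0.349) and Mkx rose. Of 7 osteoblast markers, Spp1 and Dmp1 were selected and Phex fell, Runx2 rose from 1540, 1599 and 1454 to 2121, 2013, 2228 and 2214 (0.44, adjusted p = 2.49e-06), and Ibsp and Bglap had at most 2 reads.

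Smooth muscle markers summed to 10695 to 11572 reads with vehicle and 5114 to 6749 with purmorphamine, with 6 of 7 decreased, and glial markers to 1240 to 1414 against 582 to 652, with S100b fallen and Mbp at 0 to 3 reads. Macrophage markers summed to 56 to 61 against 58 to 80 reads beside the chemokine and complement genes, with Ptprc at 0 or 1 read and Itgam at 0 or 1. Neuronal markers summed to at most 12 reads and skeletal muscle markers to at most 24 in any library. Adipocyte markers summed to 699 to 770 reads against 636 to 717, mostly from Lpl (log2 fold change -0.07, edgeR adjusted p = 0.395), and Fabp4 fell. Endothelial markers summed to 781 to 823 reads against 1899 to 2154, nearly all from Tek, epithelial ones to 14 to 23 against 111 to 136, from Cdh1. All 6 proliferation markers rose, from a sum of 8207 to 8914 reads to 12154 to 16403, and of 5 stress markers 3 fell and 1 rose (edgeR). The part of any of these in the levels of the selected genes was not tested.

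The selected genes varied more among the purmorphamine libraries than among the vehicle libraries, with a median coefficient of variation of 17.7% against 5.89%, at counts that were also lower. The rule sets those lower counts, where counting error is a larger part of the level, and its share in this difference was not tested. The median level in the purmorphamine libraries, relative to the vehicle mean of each gene, was 21.6%, 22.1%, 20.5% and 23.8% in replicates 5 to 8. Of 103 genes with a single highest purmorphamine library, that library was replicate 8 for 45 (43.7%), against 24% over all genes tested. Of 101 with a single lowest one it was replicate 6 for 37 (36.6%) and replicate 7 for 35 (34.7%), against 28.5% and 33.1% over all genes tested. Top2a, a marker of dividing cells, had 8050 reads in replicate 8 and 6032 in replicate 6, against 7374 and 7156 in replicates 5 and 7, and Mki67 had 4223 and 3024 against 3904 and 3834. Replicate 8 was thus highest and replicate 6 lowest in both markers as well, and the part of this in the spread was not tested. Without replicate 8, 117 genes would meet the rule, 107 of them among the 108.

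**Figure D5:**
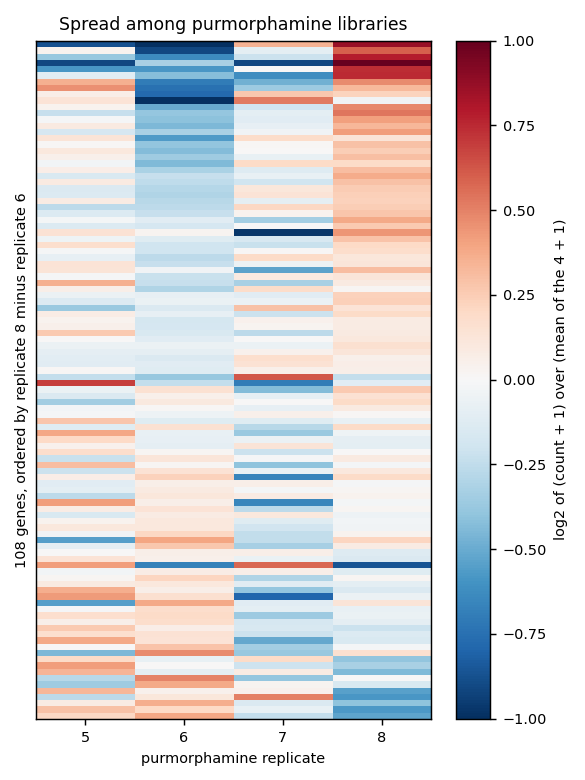
Deviation of each purmorphamine library from the mean of the 4, as the log2 of the count plus 1 over that mean plus 1, for the 108 selected genes (rows, ordered by the difference between replicates 8 and 6). Red is above and blue below the mean, with the scale ending at a log2 of 1 in either direction. Replicate 8 was the highest library for 45 genes.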

How the data were processed

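RNA from 3 vehicle and 4 purmorphamine libraries was analysed, each mapped to its group by its label. The values are counts as the authors deposited them, sense-strand reads per Ensembl gene after they resampled reads to equal numbers per library. The submitters' processing notes name STAR 2.5.3a and mm9, and the counter is not given in the sources used here. No other per-sample column was present. Resampling discards reads and sets equal totals, so the totals carry no information on yield.

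The 108 genes and all gene lists were chosen with earlier results of these data known. The selection uses the same contrast as every fold change, so no test was run on it. Background, neighbours, families and markers were tested with edgeR 4.0.16 (limma 3.58.1, R 4.3.3), with TMM factors, filterByExpr defaults (a minimum of 10 counts and a total of 15), a quasi-likelihood test with no covariates over all 7 libraries, and Benjamini-Hochberg adjustment over 12388 genes, called under 0.2. This test returns no SE, so the SE printed with a log2 fold change was derived from its F statistic. It is the size of the change divided by the square root of F. The study used limma-voom, which was run as an alternative beside DESeq2 1.42.0. The procedure was first tested on simulated data.

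Genes named by rule were the 24 with the largest ratio, the 10 with the most vehicle reads, the 3 on each side of the limit, up to 4 of each class by vehicle mean, the 2 called genes with the largest log2 fold change in each family with at least 2 selected genes and the 3 neighbours most changed in each direction, both only where the mean over the 7 libraries was 50 reads or more, and cell type markers. Products of the other selected genes are given with their ratio only. Some genes that the rule covers are not reported here. Ccl7, Wfdc13, Gm13411, Tspan2 and Xpnpep2, below that mean, Ccl9, Spp1 and Sparcl1 with their counts, the genes around the groups on chromosomes 5 and 11, and Top2a and Mki67 by library, were singled out after their values were seen.

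All 108 genes were found by Ensembl identifier in GENCODE M21 (GRCm38), 13 of them under another symbol, and positions, exon lengths and coding sequences were taken from there. The table is on mm9, so its coordinates were not used. Protein properties were planned on RefSeq proteins and were computed on translated GENCODE coding sequences, because no table of RefSeq proteins was used here. Promoters came from RefSeq (GRCm38.p6) and were taken where they lay within 5000 bases of the gene. Alternatives were other scaling, tools, filters, thresholds and limits of the rule, and each library left out in turn. Subsets of the neighbours by strand and by family were added after the data were seen.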

Additional observations from a re-analysis of the deposited data

Results flagged for a closer look

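The purmorphamine libraries of 143 genes were examined, namely the 108 selected genes and those named by rule from the families and neighbours. Other genes given with counts, such as Vim and Taf15, were not examined. Among the 143, 9 had a library whose gap to the nearest other, divided by the range of the 4, was above Dixon's 95% critical value for 4 samples. Chance alone gives about 1 in 20, or 7.2 of 143. For Expi (1, 2, 1 and 7 reads, gap 0.833) and Kank1 (409, 403, 393 and 499, gap 0.849) the library was replicate 8. For Ccl9 (74, 56, 56 and 58, gap 0.889) and Fam198a (232, 191, 194 and 190, gap 0.905) it was replicate 5. For Dmp1 (10, 9, 19 and 10, gap 0.9) it was replicate 7, and for 1810011O10Rik (25, 15, 26 and 25, gap 0.909) replicate 6. Ccl6 reached a gap of 1.0 from counts of 5, 5, 5 and 6, a difference of 1 read. Among genes outside the selection, Sulf2 (3308, 4291, 3109 and 3163, gap 0.832) and Sostdc1 (156, 115, 151 and 150, gap 0.854) had replicate 6 apart, above the others in Sulf2 and below them in Sostdc1. In the selected genes among the 9, every purmorphamine library lies below the vehicle libraries because the rule requires it. In Sulf2 and Sostdc1, which the rule did not choose, every purmorphamine count lay above every vehicle count.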

How the results depend on the processing

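No paired analysis was possible because the vehicle replicates are numbered 2 to 4 and the purmorphamine replicates 5 to 8, so the groups share no number. The rule itself set how many genes were selected. A ratio of at least 2 gave 262 genes and one of at least 4 gave 65, while TMM-scaled counts gave 124 that include all 108, and leaving out 1 library in turn gave 105 to 117, of which 100 to 107 were among the 108. The median log2 fold change stayed between -2.22 and -2.17 under other scaling, limma-voom and each library left out. A change of at least 1.5-fold as well brought the calls over all genes to 936 decreased and 977 increased, and library totals alone gave 3163 and 4650. Of the neighbours, 47 were decreased and 14 increased within 100000 bases, and 51 and 17 among the 95 on the opposite strand, by construction from fewer genes. Families with at least 1 selected gene gave 526 decreased and 496 increased others. At a hydropathy of 2.2 the N-terminal share was 49.1% against 12.0% of the other genes. Of the values for single genes under the alternatives, 1279 were kept, 8 moved and 0 reversed. For a selected gene, kept means a shift smaller than the SD of the purmorphamine libraries. For any other gene it means only the same direction and an adjusted p still under the threshold. Low counts limit Cmtm5, Expi, Il7, Ccl6 and Ttyh1, whose purmorphamine libraries held fewer than 10 reads each.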
